A study of Mus musculus with 8 samples.

Results

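The 7 genes described here make cholesterol or handle lipids in mouse testis: Hmgcs1, Idi1, Fdps, Sqle and Cyp51, which encode enzymes of cholesterol synthesis, Insig1, which holds that pathway in check, and Scd1, a fatty acid desaturase. They were picked by name from the 38163 genes of the deposited expression table. All 7 were among the 16702 genes with at least 1 FPKM (fragments scaled to transcript length and sequencing depth) in at least 2 libraries, which were the genes tested. RNA-seq of whole testis covered 4 groups of male mice: Alkbh5-null at postnatal day 18 (KO P18), wild type at day 18 (WT P18), Alkbh5-null at day 12 (KO P12) and wild type at day 12 (WT P12). ALKBH5 removes the N6-methyladenosine mark from RNA, and the series set out to learn what it does in sperm formation. Each group has 2 libraries, 8 in all, and the strain, the kind of null allele and whether animals were pooled are not given in the sources used here. Because nothing says that the libraries of a group came from separate animals, p-values measure only the spread between these libraries, which may be technical.

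Cells make cholesterol from acetyl-CoA through mevalonate, isoprenoids and squalene. The transcription factor SREBP2 switches the enzymes on together when sterols are scarce, while the closely related SREBP1 acts mainly on fatty acid genes. INSIG1 holds SCAP and the SREBPs back in the endoplasmic reticulum when sterols are plentiful, and Insig1 is itself an SREBP target. In the testis, Leydig cells turn cholesterol into testosterone, Sertoli cells handle lipid for the germ cells, and meiotic sterols made by CYP51 accumulate in the gonad.

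Total counts per library lay between 58417668 and 71537841. Before any result, the labels have to be set against the targeted gene. Alkbh5 was at 17.9 and 0.155 FPKM in the KO P18-labelled libraries (replicates 1 and 2), at 0.00985 and 9.07 FPKM in those labelled WT P18, at 0.0564 and 0.0218 FPKM in KO P12 and at 10.2 and 17.8 FPKM in WT P12. The P12 libraries followed their labels, whereas the libraries labelled KO P18 replicate 1 and WT P18 replicate 1 went against theirs. Every direction drawn at P18 is therefore that of the labels. The summed level of 12 pachytene spermatocyte genes was 2432 and 171 FPKM in the KO P18-labelled libraries, 156 and 1860 FPKM in those labelled WT P18, and 45.7 to 156 FPKM in the 4 P12 libraries. The libraries labelled KO P18 replicate 1 and WT P18 replicate 2, both holding Alkbh5, thus stood apart from the other 6. Sertoli cell genes (10 of 10 detected in each library) summed to 800 and 1098 FPKM in those libraries, against 1665 to 2235 FPKM in the other 6. Hepatocyte genes summed to 283 and 299 FPKM over 18 genes in the KO P18-labelled libraries, against 9.66 to 16.4 FPKM in the other 6. Much of the sum in those 6 was Ahsg, at 4.68 to 10.1 FPKM. Leydig cell genes (8 of 8 detected in each library) summed to 93.9 and 236 FPKM in the KO P18-labelled libraries, 247 and 117 FPKM in WT P18, 188 and 151 FPKM in KO P12 and 138 and 130 FPKM in WT P12. The liver is known to express cholesterol synthesis genes and Scd1, and the part of hepatocyte RNA in the values at P18 was not tested.

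Promoter sequence was available from RefSeq (GRCm38.p6) for 4 of the 7 genes, Hmgcs1, Cyp51, Idi1 and Insig1. Hmgcs1, Cyp51 and Insig1 had their lowest levels in KO P18 replicate 1 and WT P18 replicate 2, as described below. Idi1 was highest in KO P18 replicate 1. The sequence is shown as a description, and no link between it and these levels was tested. Each run is written 5′ to 3′ on the gene's own strand and stops before whichever annotated start comes first, that of RefSeq or that of the deposited table. It reaches the RefSeq start for Hmgcs1, while the nearest 49 bases before that start are left out for Cyp51 and Insig1 and the nearest 105 for Idi1, so no match was looked for there. Capitals stand for matches on either strand to TCACNNCA (a sterol regulatory element-like string), CCAAT (the CCAAT box) and TGACG (the core of a cAMP response element).
Hmgcs1, chr13:119690101-119690350, plus strand: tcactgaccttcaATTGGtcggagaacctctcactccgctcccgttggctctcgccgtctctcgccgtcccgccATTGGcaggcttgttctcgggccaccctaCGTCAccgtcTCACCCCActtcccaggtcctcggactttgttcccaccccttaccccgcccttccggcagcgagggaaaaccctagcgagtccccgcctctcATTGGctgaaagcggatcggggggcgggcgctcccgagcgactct
Cyp51, chr5:4104747-4104947, minus strand: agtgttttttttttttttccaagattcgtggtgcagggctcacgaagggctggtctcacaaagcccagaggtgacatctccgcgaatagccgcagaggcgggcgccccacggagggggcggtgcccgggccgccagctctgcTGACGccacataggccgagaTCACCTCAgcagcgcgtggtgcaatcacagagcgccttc
Idi1, chr13:8885356-8885500, plus strand: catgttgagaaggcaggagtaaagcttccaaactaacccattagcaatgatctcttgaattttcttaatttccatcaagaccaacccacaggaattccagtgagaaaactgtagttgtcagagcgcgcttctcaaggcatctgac
Insig1, chr5:28071162-28071362, plus strand: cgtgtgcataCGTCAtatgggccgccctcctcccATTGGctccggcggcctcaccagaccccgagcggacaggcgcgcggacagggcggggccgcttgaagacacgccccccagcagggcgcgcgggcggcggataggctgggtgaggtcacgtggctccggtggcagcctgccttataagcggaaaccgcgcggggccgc
The Hmgcs1 window held 1 sterol element-like string, 3 CCAAT boxes and 1 cAMP response core. Among 32851 RefSeq promoters cut to the same 250 bases, 11.4% held the first motif, 33.8% the CCAAT box and 17.8% the cAMP response core. The Cyp51 window held 1 TCACNNCA and 1 TGACG match and no CCAAT, and the Insig1 window held 1 CCAAT and 1 TGACG match and no TCACNNCA. In windows of 201 bases, as for these genes, the shares over all promoters were 9.21% for TCACNNCA, 28.6% for CCAAT and 12.8% for TGACG. Idi1 had none of the 3 strings in its 145 bases, where 6.65%, 19.3% and 8.04% of all promoters had them. None of the matches overlapped another. A match is a description of letters and not a bound site.

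In FPKM, a scale that allows levels of different genes to be set side by side, Hmgcs1 was the most abundant of the 7 with a mean of 49.1 over the 8 libraries. Insig1 averaged 18.3, Fdps 13.4, Idi1 12.8, Sqle 8.42, Cyp51 7.91 and Scd1 3.53 FPKM. The ratio of the highest to the lowest library was 6.67 for Scd1, 3.08 for Insig1, 2.42 for Fdps, 2.12 for Cyp51 and 2.02 for Hmgcs1. Idi1 and Sqle were the steadiest at 1.45 and 1.39.

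**Figure D1:**
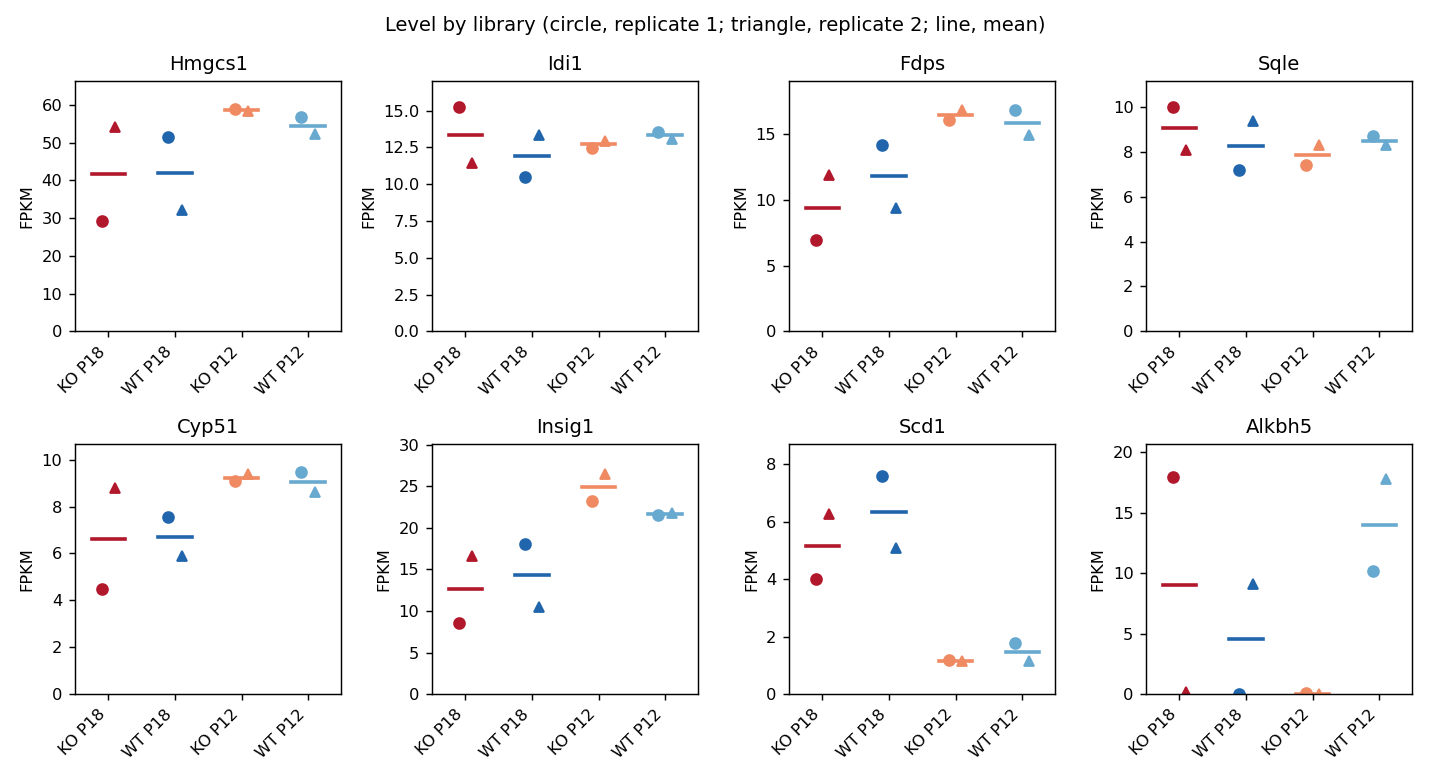
Level of each of the 7 genes and of Alkbh5, in FPKM on linear axes from 0, in the 2 libraries of each labelled group (circle, replicate 1; triangle, replicate 2; line, their mean). For each of the 7 genes, the libraries of a P18 group lie further apart than those of the P12 group of the same genotype, and Scd1 is higher in all 4 P18 libraries than in all 4 P12 libraries.

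The enzymes come first, in the order of the pathway. Hmgcs1 (ENSMUSG00000093930, chromosome 13, 119690379 to 119708260 on GRCm38), the cytosolic HMG-CoA synthase at the entry to the mevalonate route, had 29.1 and 54.1 FPKM in the KO P18-labelled libraries, 51.5 and 32.2 FPKM in WT P18, 58.8 and 58.2 FPKM in KO P12 and 56.8 and 52.2 FPKM in WT P12. The lowest levels were in KO P18 replicate 1 and WT P18 replicate 2, the libraries with high pachytene gene levels, and the other 6 lay between 51.5 and 58.8 FPKM. Their part in this difference, and that of the lower Sertoli signal there, was not tested. In whole tissue, fewer cells of a type and less RNA per cell cannot be told apart.

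Idi1 (ENSMUSG00000058258, chromosome 13, 8885501 to 8892451) encodes the isomerase that converts isopentenyl diphosphate. It had 15.2 and 11.4 FPKM in the KO P18-labelled libraries, 10.5 and 13.3 FPKM in WT P18, 12.4 and 12.9 FPKM in KO P12 and 13.6 and 13.1 FPKM in WT P12. Unlike Hmgcs1, it was highest in KO P18 replicate 1, and the P18 groups overlapped. Fdps (ENSMUSG00000059743, chromosome 3, 89093588 to 89101959), the farnesyl diphosphate synthase that feeds both sterols and protein prenylation, had 6.94 and 11.8 FPKM in the KO P18-labelled libraries, 14.2 and 9.41 FPKM in WT P18, 16.1 and 16.8 FPKM in KO P12 and 16.8 and 14.9 FPKM in WT P12. All 4 P18 libraries were below all 4 P12 libraries, and KO P18 replicate 1 and WT P18 replicate 2 were again the lowest.

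Sqle (ENSMUSG00000022351, chromosome 15, 59315077 to 59331192) encodes squalene epoxidase, a rate-limiting step of the sterol branch. It had 9.999 and 8.10 FPKM in the KO P18-labelled libraries, 7.18 and 9.36 FPKM in WT P18, 7.41 and 8.31 FPKM in KO P12 and 8.70 and 8.28 FPKM in WT P12. Its highest levels were in KO P18 replicate 1 and WT P18 replicate 2, where Hmgcs1 and Fdps were lowest. Cyp51 (ENSMUSG00000001467, chromosome 5, 4081145 to 4104746), the lanosterol demethylase, had 4.47 and 8.79 FPKM in the KO P18-labelled libraries, 7.55 and 5.89 FPKM in WT P18, 9.10 and 9.38 FPKM in KO P12 and 9.46 and 8.63 FPKM in WT P12. Its lowest levels were in KO P18 replicate 1 and WT P18 replicate 2, as those of Hmgcs1 were. Cyp51 overlaps Akap9 on the opposite strand, Hmgcs1 overlaps Gm48342 and Idi1 overlaps Gm48574 in the same way. The use of strand in counting is not stated, so reads from these partners could be in their values. Fdps overlaps Gm22935 on its own strand, and its value could likewise hold reads from that gene.

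Insig1 (ENSMUSG00000045294, chromosome 5, 28071363 to 28078662) had 8.60 and 16.6 FPKM in the KO P18-labelled libraries, 18.1 and 10.5 FPKM in WT P18, 23.2 and 26.5 FPKM in KO P12 and 21.5 and 21.8 FPKM in WT P12. Every P18 library was below every P12 library, and the lowest were KO P18 replicate 1 and WT P18 replicate 2. Scd1 (ENSMUSG00000037071, chromosome 19, 44394455 to 44407709), which encodes a stearoyl-CoA desaturase that puts a double bond into saturated fatty acids, had 4.01 and 6.28 FPKM in the KO P18-labelled libraries, 7.60 and 5.08 FPKM in WT P18, 1.18 and 1.14 FPKM in KO P12 and 1.78 and 1.15 FPKM in WT P12. It was the only one of the 7 whose 4 P18 libraries all lay above its 4 P12 libraries. The share of all genes with such a separation over both genotypes, in either direction, was not counted. The placing of Scd1, Insig1 and Fdps is therefore a description only.

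The comparison at P12 asks what the null allele does while most spermatocytes are in leptotene and zygotene. None of the 7 genes passed the test, and their log2 differences, KO minus WT, lay between -0.33 and 0.21. Insig1 averaged 24.9 ± 2.30 FPKM in KO P12 and 21.7 ± 0.218 FPKM in WT P12 (SD, n = 2 each), a log2 difference of 0.21 ± 0.09 (SE) which did not pass (adjusted p = 0.355, edgeR quasi-likelihood). Hmgcs1 averaged 58.5 ± 0.376 FPKM in KO P12 and 54.5 ± 3.30 FPKM in WT P12, a log2 difference of 0.12 ± 0.07 (edgeR adjusted p = 0.538). Scd1 had the largest difference in size at -0.33 ± 0.24 (edgeR adjusted p = 0.604), which rested on WT P12 replicate 1 and was 0.025 without that library.

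Of the 16702 genes, 9 (0.0539%) were called at P12 by edgeR, all of them lower in KO and Alkbh5 among them at -8.37 ± 0.42 (adjusted p = 0.00466). DESeq2 called 653 genes there and limma on log2(FPKM + 1) none, and neither called any of the 7. At an unadjusted p under 0.05, 2271 genes and 1 of the 7, Insig1, passed in edgeR. Hmgcs1 and Insig1 were higher in both KO P12 libraries than in both WT P12 libraries, where 21.3% of all genes were so placed. Idi1 was lower in both, where 24% of all genes were. These counts are near the background. The 12 pachytene genes were all lower in the KO P12 libraries, with a median log2 difference of -1.91, and 9 of 10 Sertoli genes were higher, with a median of 0.22. All 8 Leydig genes were higher, with a median of 0.32. The part of these cell types in the values above was not tested.

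No other gene of the pathway lists was called at P12. Of the 16 cholesterol synthesis enzymes outside the 7, 11 were higher and 5 lower in KO, and their median log2 difference was 0.10, against 0.0096 over all genes and 0.04 for the 7. Sc5d, a late desaturase of the sterol ring and among the lowest in p outside the 7, was at 0.25 ± 0.09 (edgeR adjusted p = 0.311). Among 13 tested genes of SREBP control and sterol uptake, 9 were higher and 4 lower, and again none was called. Npc2, which carries cholesterol out of lysosomes, was at 0.22 ± 0.07 (edgeR adjusted p = 0.268) and Srebf1, the gene of SREBP1, at 0.19 ± 0.08 (0.353). Of 15 fatty acid synthesis and desaturation genes 12 were higher and 3 lower in KO, with a median of 0.13. Me1, the malic enzyme that supplies NADPH, was at 0.27 ± 0.09 (edgeR adjusted p = 0.296) and Acss2, which makes acetyl-CoA from acetate, at -0.34 ± 0.12 (0.313). In the list of sterol efflux, esterification and LXR genes, 6 of 8 tested were higher. The efflux transporter gene Abcg1 was at 0.39 ± 0.22 (edgeR adjusted p = 0.481) and Cyp27a1, a sterol hydroxylase, at 0.15 ± 0.11 (0.573). The isoprenoid branch had 4 of 10 genes higher and 6 lower, with Icmt, the methyltransferase of prenylated proteins, at -0.23 ± 0.09 (edgeR adjusted p = 0.338) and Pggt1b, a prenyltransferase subunit, at 0.18 ± 0.08 (0.374). At an unadjusted p under 0.05 the counts were 2 of 21 enzymes, 3 of 13 SREBP control genes, 5 of 15 fatty acid genes, 0 of 8 efflux genes and 1 of 10 isoprenoid genes, where 13.6% of all genes passed. The SREBP control count includes Insig1, which is among the 7. Neither DESeq2 nor limma called any gene of these lists.

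At P18, only KO P18 replicate 1 and WT P18 replicate 2 held high pachytene gene levels. By label, the comparison of KO with WT called no gene of 16702 in edgeR (0%), and 129 at an unadjusted p under 0.05. DESeq2 called 114 and limma none. None of the 7 genes was called by any of these tools, and none passed the unadjusted threshold. Libraries of the groups overlapped for all 7, where 10.1% of all genes did not overlap. Log2 differences, KO minus WT, lay between -0.25 ± 0.32 for Fdps and 0.28 ± 0.39 for Idi1 (SE, n = 2 each, edgeR adjusted p = 0.99996 for each of the 7). Hmgcs1 averaged 41.6 ± 17.6 FPKM in the KO P18-labelled libraries and 41.9 ± 13.7 FPKM in those labelled WT P18 (SD), so the spread within a label was far larger than the difference between labels. Insig1 was at 12.6 ± 5.63 FPKM in KO P18 and 14.3 ± 5.38 FPKM in WT P18 in the same way. Hepatocyte genes stood at 283 and 299 FPKM in the KO P18-labelled libraries and at 16.4 and 9.66 FPKM in WT P18, and their part in these differences was not tested.

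**Figure D2:**
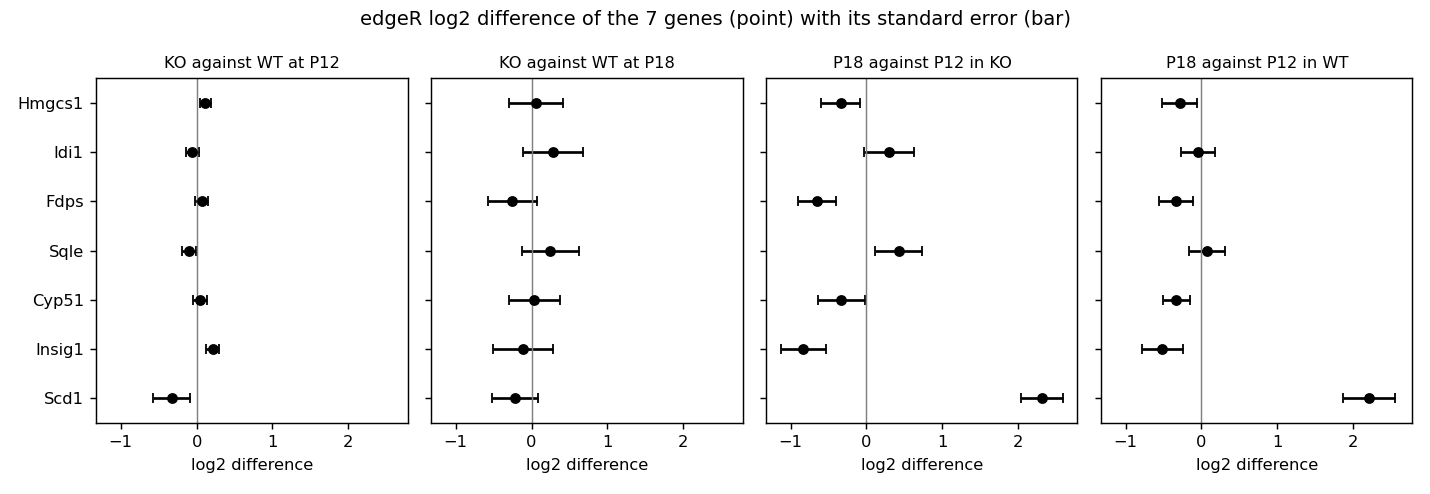
The edgeR log2 difference of each of the 7 genes (point) with its standard error (bar) in 4 comparisons, KO minus WT or P18 minus P12, with 2 libraries per group. Only Scd1 lies far from 0, by 2.31 in KO and 2.20 in WT, in the comparisons of age, and standard errors are wider wherever P18 libraries enter.

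With the libraries labelled KO P18 replicate 1 and WT P18 replicate 1 left out, 1 library remained in each P18 group, of which the WT one holds the high pachytene gene level. The lone libraries were assumed to vary like the P12 groups. Hmgcs1 was then higher in KO by 0.60 ± 0.11 (edgeR adjusted p = 0.00948) and Insig1 by 0.52 ± 0.12 (0.0228), so that 2 of the 7 genes were called, where 38.1% of all genes were. Cyp51 was at 0.43 ± 0.14 (edgeR adjusted p = 0.0525), Idi1 at -0.37 ± 0.12 (0.0547), Sqle at -0.35 ± 0.13 (0.0836), Fdps at 0.19 ± 0.13 (0.301) and Scd1 at 0.16 ± 0.31 (0.714). A share of 2 in 7 is not above that background. Marker sums of several cell types moved with these values. Pachytene genes were at 171 FPKM in KO P18 replicate 2 and 1860 FPKM in WT P18 replicate 2. Hepatocyte genes were at 299 FPKM in KO P18 replicate 2 and 9.66 FPKM in WT P18 replicate 2, Sertoli genes at 1962 FPKM in the first and 1098 FPKM in the second, and Leydig genes at 236 FPKM in the first and 117 FPKM in the second. The part of none of these was tested.

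No gene of the 5 pathway lists was called at P18 by edgeR, DESeq2 or limma with all libraries, and none had an unadjusted p under 0.05. The lists were not level between single libraries, however. Summed FPKM in KO P18 replicate 2 and WT P18 replicate 2 was 259 and 211 for enzymes, 208 and 162 for SREBP control and 807 and 512 for fatty acid genes. It was 128 and 83.4 for efflux genes and 121 and 138 for the isoprenoid branch. Between KO P18 replicate 1 and WT P18 replicate 1 each list had the opposite order. Among the 21 enzymes 9 were higher and 12 lower, with a median log2 difference of -0.05, against 0.02 over all genes. Fdft1, which encodes squalene synthase, had 34.7 and 13.1 FPKM in the KO P18-labelled libraries and 13.3 and 21.4 FPKM in those labelled WT P18, a difference of 0.63 ± 0.72 (edgeR adjusted p = 0.99996). Tm7sf2, a sterol reductase gene, was at -0.21 ± 0.25. In the other lists the lowest p belonged to Scap, the sterol sensor that escorts SREBPs (-0.14 ± 0.30), Stard4, a cholesterol carrier (0.09 ± 0.24), the elongase genes Elovl1 (-0.20 ± 0.30) and Elovl2 (0.18 ± 0.27), Lcat, which esterifies plasma cholesterol (1.01 ± 0.47), the nuclear receptor gene Nr1h2 (-0.09 ± 0.22), Coq2 of ubiquinone synthesis (-0.19 ± 0.25) and Pggt1b (0.15 ± 0.23). All had an edgeR adjusted p of 0.99996. Lcat is also a liver gene. It was at 1.92 and 4.23 FPKM in the KO P18-labelled libraries, which held hepatocyte genes, at 1.68 and 1.46 FPKM in WT P18, at 2.80 and 2.14 FPKM in KO P12 and at 2.69 and 3.33 FPKM in WT P12. All 4 P12 libraries, at the low hepatocyte level, were thus above KO P18 replicate 1, and the part of hepatocyte RNA in Lcat was not tested.

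The comparisons of age follow first-wave spermatogenesis between day 12 and day 18. Scd1 was higher at P18 in both genotypes, by a log2 difference of 2.31 ± 0.28 in KO and 2.20 ± 0.34 in WT (SE, n = 2 each). Scd1 averaged 5.14 ± 1.61 FPKM in KO P18 and 1.16 ± 0.0255 FPKM in KO P12, and 6.34 ± 1.78 FPKM in WT P18 and 1.47 ± 0.447 FPKM in WT P12 (SD). The fitted ratios were 4.98-fold in KO and 4.60-fold in WT. The difference did not pass in edgeR (adjusted p = 0.430 in KO and 0.518 in WT), where no gene did in either genotype (0% in each). At an unadjusted p under 0.05, 1535 genes passed in KO and 1191 in WT. The 7 supplied 2 of them in KO, Scd1 and Insig1, and 1 in WT, Scd1.

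DESeq2 called Scd1 in both genotypes, with an adjusted p of 8.58e-12 in KO and 1.07e-05 in WT, and no other of the 7. It called 1339 genes (8.02%) in KO and 640 (3.91%) in WT. Limma called none. A fit of all 8 libraries for the mean difference with age over both genotypes, a comparison added after the data were seen, gave Scd1 a log2 difference of 2.26 ± 0.22 with an edgeR adjusted p of 0.0644. That fit called 4 genes (0.0239%) in edgeR, none of them among the 7. In DESeq2 it called 4227 genes (25.3%), among them Scd1 (2.29 ± 0.23, adjusted p = 5.24e-20), Insig1 (-0.64 ± 0.23, 0.0254) and Fdps (-0.46 ± 0.18, 0.0410).

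Which P18 library was used decided the edgeR calls, but not the direction of Scd1. Without KO P18 replicate 2, all 7 genes were called in KO, where 54.4% of all genes were. Without KO P18 replicate 1 only Scd1 was called (2.45 ± 0.18, edgeR adjusted p = 0.00155), where 6.84% of all genes were. In WT 6 of the 7 were called without WT P18 replicate 1, where 49.4% of all genes were, and Scd1 alone (2.42 ± 0.25, edgeR adjusted p = 0.00768) without WT P18 replicate 2, where 13.6% were. In each of these fits the remaining P18 library is assumed to vary like the others. Scd1 was thus called with either P18 library of each genotype alone, though not when a P12 library was left out instead (edgeR adjusted p between 0.9996 and 1 over the 4 fits).

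With KO P18 replicate 1 as the only P18 library, Insig1 fell by 1.17 ± 0.15 on the log2 scale (edgeR adjusted p = 0.00411), Fdps by 0.88 ± 0.13 (0.006), Cyp51 by 0.68 ± 0.14 (0.0151) and Hmgcs1 by 0.64 ± 0.12 (0.0112). Scd1 rose by 2.15 ± 0.19 (0.00142), Sqle by 0.71 ± 0.14 (0.0131) and Idi1 by 0.62 ± 0.13 (0.0141). With WT P18 replicate 2 as the only P18 library, Insig1 fell by 0.88 ± 0.08 (edgeR adjusted p = 0.00279), Hmgcs1 by 0.59 ± 0.08 (0.0071), Fdps by 0.58 ± 0.11 (0.0156) and Cyp51 by 0.45 ± 0.11 (0.0301), while Scd1 rose by 1.96 ± 0.28 (0.00817) and Sqle by 0.31 ± 0.08 (0.0390). The 6 genes called in both fits had the same sign in each. About as many genes were called as not over the whole table in these fits, and nothing particular to the 7 was tested. Those are the libraries with high pachytene and low Sertoli gene levels. Hepatocyte genes were at 283 FPKM in KO P18 replicate 1, against 13.9 and 11.9 FPKM in KO P12, and at 9.66 FPKM in WT P18 replicate 2, against 11.5 and 10.3 FPKM in WT P12. The part of these cell types was not tested.

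With the pair of label-contradicting P18 libraries left out, Scd1 stayed higher at P18, by 2.45 ± 0.26 in KO (edgeR adjusted p = 0.0121) and 1.97 ± 0.26 in WT (0.00243). In KO 2 of the 7 were called, Scd1 and Insig1 (-0.58 ± 0.11, edgeR adjusted p = 0.0307), where 10.8% of all genes were. The P18 library of that KO fit held hepatocyte genes at 299 FPKM, and their part in these calls was not tested. In WT 5 were called, Scd1, Insig1, Hmgcs1, Fdps and Cyp51, where 44.9% of all genes were. Over both genotypes 4 were called, where 43.8% of all genes were, with Scd1 at 2.21 ± 0.18 (edgeR adjusted p = 0.000614), Insig1 at -0.72 ± 0.08 (0.00131), Fdps at -0.52 ± 0.08 (0.00445) and Hmgcs1 at -0.34 ± 0.07 (0.00933).

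In the fits of all libraries, Insig1 differed by -0.83 ± 0.30 in KO (edgeR adjusted p = 0.432) and -0.51 ± 0.27 in WT (0.518), and Fdps by -0.65 ± 0.25 in KO (0.432) and -0.33 ± 0.22 in WT (0.554). Hmgcs1 was at -0.34 ± 0.26 in KO and -0.29 ± 0.23 in WT, and Cyp51 at -0.33 ± 0.31 in KO and -0.33 ± 0.18 in WT, all short of the threshold. Sqle was at 0.42 ± 0.31 in KO and 0.08 ± 0.23 in WT, and Idi1 at 0.30 ± 0.33 in KO and -0.04 ± 0.22 in WT. Hmgcs1, Cyp51, Fdps and Insig1 were lower in both P18 libraries than in both P12 libraries within each genotype, where 33.5% of all genes were lower in KO and 31.3% in WT. Scd1 was higher without overlap in each, where 22.2% of all genes were higher in KO and 16.2% in WT. The interaction, the change with age in KO minus that in WT, lay between -0.34 ± 0.41 for Insig1 and 0.33 ± 0.39 for Sqle, and was 0.10 ± 0.41 for Scd1 (edgeR adjusted p = 0.99996 for each). Interaction calls numbered 0 of all genes in edgeR (0%), with 160 at an unadjusted p under 0.05, 45 in DESeq2 and 7 in limma, and none of the 7 genes was among the calls.

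Scd1 is also an adipocyte gene, and its level was set beside the markers of other cell types. The 8 adipocyte markers summed to 3.77 and 11.2 FPKM in the KO P18-labelled libraries, 22.6 and 18.2 FPKM in WT P18, 2.06 and 2.38 FPKM in KO P12 and 4.42 and 1.01 FPKM in WT P12. The 5 of them that were tested were all higher at P18, with a median log2 difference of 2.72 in KO and 3.71 in WT, and edgeR called none. In KO P18 replicate 1, where Scd1 was at 4.01 FPKM, Adipoq and Cfd were listed at 0. Car3 (2.21 FPKM), Retn (0.352 FPKM) and Lep (0.0326 FPKM) were above all P12 libraries there, and Plin1, Cidec and Fabp4 were within the P12 range. Cfd reached 7.00 FPKM in WT P18 replicate 1, where Scd1 was highest at 7.60 FPKM. Hepatocyte markers were at 16.4 and 9.66 FPKM in WT P18, near their P12 level, while Scd1 was at 7.60 and 5.08 FPKM there. In the KO P18-labelled libraries they were at 283 and 299 FPKM, where Scd1 was at 4.01 and 6.28 FPKM. The parts of hepatocyte and adipocyte RNA in Scd1 were not tested beyond these values.

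**Figure D3:**
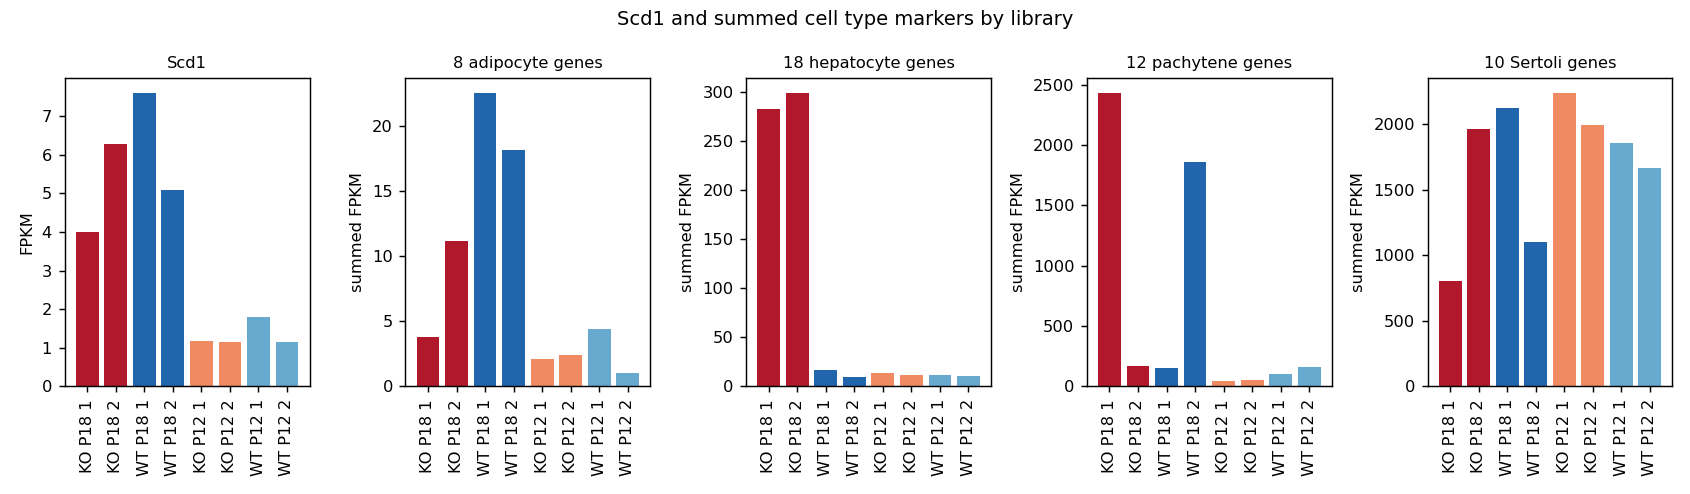
Bars give, on linear axes from 0, the Scd1 level (FPKM) and the summed FPKM of adipocyte, hepatocyte, pachytene spermatocyte and Sertoli marker genes in each of the 8 libraries. Scd1 is above 4 FPKM in all P18 libraries, hepatocyte genes are high in the KO P18-labelled libraries only, and pachytene genes are high in KO P18 replicate 1 and WT P18 replicate 2.

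None of the close paralogues Scd2, Scd3 and Scd4 had all P18 libraries above all P12 libraries, as Scd1 did. Scd2 was among the 15 fatty acid genes tested, of which edgeR called none in any comparison of all libraries. Test results of Scd3 and Scd4 are not given here. Scd2, the most abundant desaturase of the family here, had 53.0 and 133 FPKM in the KO P18-labelled libraries, 142 and 69.9 FPKM in WT P18, 109 and 121 FPKM in KO P12 and 106 and 97.1 FPKM in WT P12. Its P18 libraries lay on both sides of the P12 range. Scd3 lay between 0.391 and 1.37 FPKM over the 8 libraries. Scd4 had 0.899 and 1.503 FPKM in the KO P18-labelled libraries, 1.49 and 0.770 FPKM in WT P18, 0.846 and 0.904 FPKM in KO P12 and 0.712 and 0.757 FPKM in WT P12, so within WT both P18 libraries were above both P12 libraries and within KO they overlapped. The paralogues are similar in sequence, and how reads shared between them were assigned is not stated.

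Beyond the 7 genes, the other list members of low p in the comparisons of age did not pass in edgeR either. In SREBP control and uptake, Stard4, a carrier of cholesterol between membranes, had 3.73 and 5.12 FPKM in the KO P18-labelled libraries, 4.67 and 4.13 FPKM in WT P18, 6.66 and 7.10 FPKM in KO P12 and 7.32 and 7.27 FPKM in WT P12. It was lower in all P18 than in all P12 libraries, as Insig1 was, and the share of all genes so placed was not counted. Its log2 difference, P18 minus P12, was -0.46 ± 0.22 in KO (edgeR adjusted p = 0.432) and -0.63 ± 0.15 in WT (0.518). DESeq2 called it in WT (adjusted p = 0.0228) and not in KO (0.304). Of the 13 tested genes of the list, 10 were lower in each genotype.

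Among the enzymes, Hsd17b7 (-0.72 ± 0.28) and Mvd (-0.64 ± 0.25) had the lowest p in KO, and Tm7sf2 (0.59 ± 0.19) and Pmvk (-0.47 ± 0.21) in WT, none with an edgeR adjusted p under 0.432. Of the 21 enzymes 15 were lower at P18 in KO and 11 in WT, with medians of -0.09 in KO and -0.04 in WT, against 0.03 and 0.04 over all genes in these comparisons. For fatty acid genes other than Scd1, Me1 was at 0.33 ± 0.20 in KO and 0.48 ± 0.23 in WT, Acss2 at 0.64 ± 0.29 in KO and Acaca, the carboxylase that makes malonyl-CoA, at 0.26 ± 0.18 in WT. In the efflux and LXR list, Nr1h3, the gene of the sterol receptor LXR alpha, was at 1.05 ± 0.39 in KO and 0.75 ± 0.27 in WT, Cyp27a1 at -0.72 ± 0.38 in KO and Lcat at -0.83 ± 0.30 in WT. In the isoprenoid branch, Icmt was at 1.09 ± 0.48 in KO and 0.79 ± 0.43 in WT, and Fnta, a farnesyltransferase subunit, at 0.69 ± 0.41 in KO and 0.46 ± 0.29 in WT. Over the 5 lists, DESeq2 called no gene of SREBP control in KO and 2 in WT, Scd1 as the 1 fatty acid gene in each genotype, and no others, and limma called none. In edgeR an unadjusted p under 0.05 was reached in KO by 0 enzymes, 1 SREBP control gene, Insig1, and 1 fatty acid gene, Scd1. In WT it was reached by 1 enzyme, 2 SREBP control genes and 1 fatty acid gene, again Scd1. No gene of the other lists reached it, where 9.19% of all genes did in KO and 7.13% in WT.

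In the fit over both genotypes, the genes of low p were Hsd17b7 (-0.61 ± 0.18) with Tm7sf2 (0.42 ± 0.13), Stard4 (-0.54 ± 0.10), Me1 (0.40 ± 0.15) with Acss2 (0.46 ± 0.18), Nr1h3 (0.90 ± 0.23) with Soat1, which esterifies cholesterol (0.60 ± 0.24), and Icmt (0.94 ± 0.36) with Coq2 (-0.25 ± 0.11). The lowest edgeR adjusted p was 0.105, for Stard4. At an unadjusted p under 0.05 the lists held 4 of 21 enzymes, 4 of 13 SREBP control genes, 3 of 15 fatty acid genes, 2 of 8 efflux genes and 1 of 10 isoprenoid genes in that fit, where 29.97% of all genes passed. DESeq2 called 4, 3, 2, 1 and 1 of them, where 25.3% of all genes were called, and limma none. Both sets of counts include Fdps, Insig1 and Scd1, which are among the 7 genes. For the interaction, the genes of low p were Tm7sf2 (-0.36 ± 0.25), Npc2 (-0.35 ± 0.36) with Srebf1 (-0.36 ± 0.42), Acss2 (0.35 ± 0.36) with Srebf1, Lcat (1.26 ± 0.51) with Nr1h2 (-0.15 ± 0.17), and Fntb (-0.45 ± 0.38) with Coq2 (-0.19 ± 0.22), all with an edgeR adjusted p of 0.99996. None of these genes had an unadjusted p under 0.05, and neither DESeq2 nor limma called any gene of the lists for the interaction.

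Each P18 library was also set against the range of the 4 P12 libraries. In KO P18 replicate 1, 15 of the 21 enzymes lay under that range (71.4%, against 57.7% of all genes tested) and 5 over it (23.8%, against 31.4%). WT P18 replicate 2 had 14 under (66.7%, against 49.95%) and 4 over (19.05%, against 33.8%). KO P18 replicate 2 had 8 under (38.1%, against 33.8%) and 5 over (23.8%, against 28.6%), and WT P18 replicate 1 had 10 under (47.6%, against 34.7%) and 4 over (19.05%, against 27.8%). The summed level of the 16 enzymes outside the 7 was 134 and 164 FPKM in the KO P18-labelled libraries, 166 and 141 FPKM in WT P18, and between 166 and 173 FPKM at P12. Those 16 were therefore at 0.800 and 0.840 of the WT P12 mean in KO P18 replicate 1 and WT P18 replicate 2, and at 0.981 and 0.989 of it in the other P18 libraries. Fdft1 stood out among them, at 34.7 FPKM in KO P18 replicate 1 and between 13.1 and 21.4 FPKM elsewhere. Dhcr7, which encodes a late reductase of the pathway and was picked out after its values were seen, had 10.2 FPKM in KO P18 replicate 2 and 9.33 FPKM in WT P18 replicate 1, above all P12 libraries (6.83 to 7.61 FPKM). In those P18 libraries Fdps was below all P12 libraries.

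**Figure D4:**
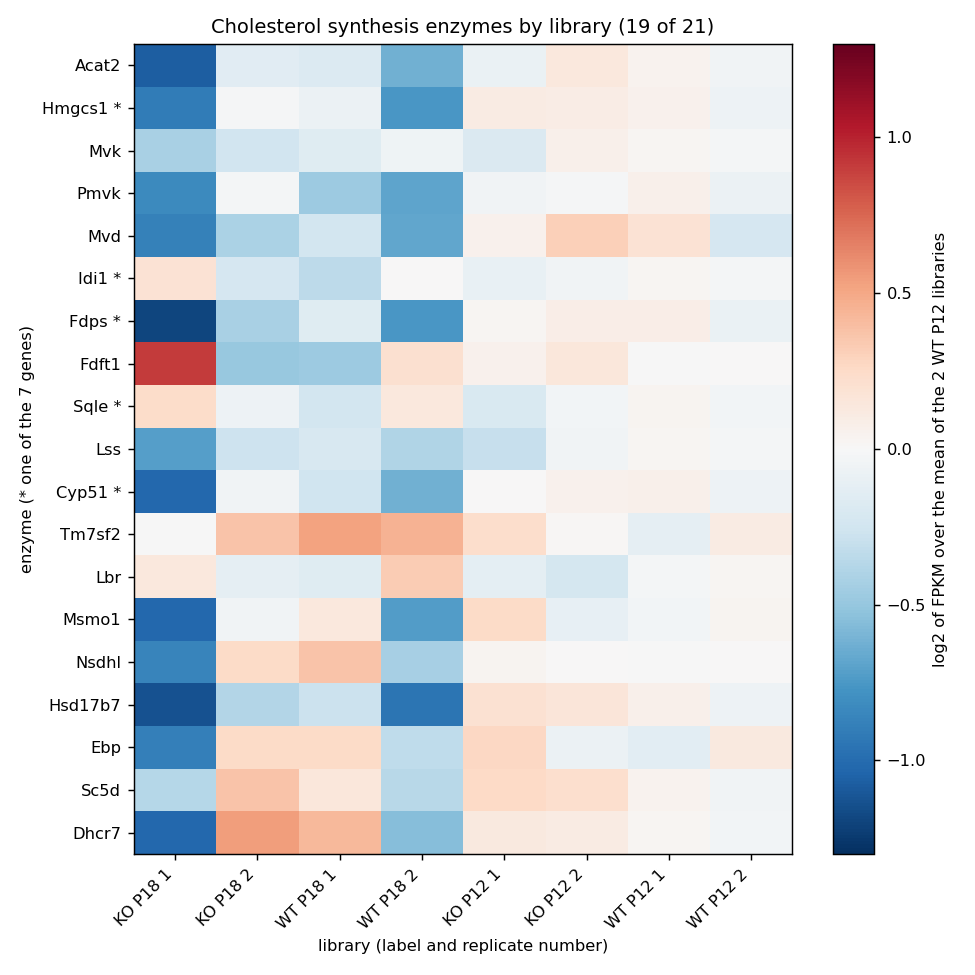
Heat map of 19 of the 21 cholesterol synthesis enzymes in pathway order from top to bottom (asterisk, one of the 7 genes) by library, coloured by log2 of the FPKM over the mean of the 2 WT P12 libraries. KO P18 replicate 1 and WT P18 replicate 2 are blue for most enzymes but not for Idi1, Fdft1, Sqle, Tm7sf2 and Lbr, for which at least one of them is at or above 0.

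Over the 8 libraries, the 3 genes most like each of the 7 in log2(FPKM + 1), among 8438 tested genes with a mean of at least 5 FPKM, were listed by Pearson r as a description. All 8 libraries enter, among them the 2 with high pachytene gene levels. For Hmgcs1 these were Bcr (0.998), Cacul1 (0.997) and Amotl2 (0.997), and Bcr had 2.92 and 7.08 FPKM in the KO P18-labelled libraries, 6.42 and 3.48 FPKM in WT P18 and 6.79 to 7.87 FPKM at P12. For Cyp51 they were Arrdc4 (0.998), Epn3 (0.996) and Snx5 (0.995), and for Fdps Coq8a (0.997), Dstyk (0.994) and Hexdc (0.994). For Insig1 they were Klf8 (0.999), Rai1 (0.998) and Fam76b (0.997).

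Sqle was most like Uchl5 (0.981), Sbno1 (0.970) and Pank2 (0.968), and Idi1 most like Ddx20 (0.980), Ndc80 (0.978) and Gtf2f1 (0.976). Uchl5 had 15.0 and 8.22 FPKM in the KO P18-labelled libraries, 6.66 and 12.6 FPKM in WT P18 and 7.47 to 9.78 FPKM at P12, high where Hmgcs1 was low. Scd1 was most like Cyth2 (0.989), Dmrtc1b (0.986) and Mrs2 (0.980). Dmrtc1b had 6.49 and 12.2 FPKM in the KO P18-labelled libraries, 15.6 and 9.20 FPKM in WT P18 and 1.69 to 2.36 FPKM at P12, the same order of P18 libraries as Scd1. None of these 21 neighbours belongs to the 5 pathway lists, but the lists hold few of the 8438 genes compared. Nothing is drawn from that count.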

How the data were processed

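Poly(A) RNA of whole testis was sequenced as 2 reads of 150 bp per fragment, from total RNA with an integrity number above 7, per the labels' protocols. Per the submitters' processing notes, cutadapt 1.9, HISAT2 2.2.1 and StringTie 2.1.6 were used with GRCm38. The deposited table gives FPKM values, scaled by the authors for length and depth, and whole-number counts, which the authors did not normalize as far as their differing totals show. The counting tool and its use of strand are not given in the sources used here. Groups follow the labelled genotype and age.

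Genes with at least 1 FPKM in at least 2 libraries were tested on the deposited counts with edgeR 4.0.16 (TMM scaling, quasi-likelihood F-test, R 4.3.3, two-sided), using only the 4 libraries of the groups compared, or all 8 for the interaction and for age over both genotypes. P-values were adjusted over all 16702 genes by the Benjamini-Hochberg method, and genes under 0.05 were called. SE is the log2 difference divided by the square root of F. DESeq2 1.42.0, limma 3.58.1 on log2(FPKM + 1) and log2(FPKM + 0.1), another scaling, no filter, the replicate number as a block, other library sets and leaving out each library were alternatives. Of these, the crossed block and age over both genotypes were added once the data had been seen. The test was checked on counts simulated for the 4 P12 libraries only, so the check does not cover comparisons with P18 libraries. The common dispersion, a measure of spread between libraries, was 0.0179 for KO against WT at P12 and 0.405 at P18. Libraries of a group differed beyond sampling noise, so each was kept as 1 replicate.

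The 7 genes, the 5 pathway lists, the marker lists and the rule for naming genes were chosen with earlier results of these data known. Named were the 7 genes, Alkbh5, in each list and comparison the other members called, or where none was called the pair of lowest p, and for likeness the 3 genes of highest r. Some genes that this rule names are not reported here, though counts over a list include them. Dhcr7, and Fdft1 in the comparison with the P12 range, were named after their values were seen, as were the paralogues of Scd1. Positions are those of the deposited table, on GRCm38.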

Additional observations from a re-analysis of the deposited data

How the results depend on the processing

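With all libraries kept, none of the 7 genes was called under another scaling, limma, no filter, or the replicate block in any of the comparisons. Of 546 values of a gene under an alternative, 457 kept their direction and side of the threshold, 36 kept their direction and were newly called, and 53 changed sign. DESeq2 called 653 genes for KO against WT at P12, 114 at P18, 1339 for age in KO, 640 in WT, 45 for the interaction and 4227 for age over both genotypes, with 0, 0, 1, 1, 0 and 3 of the 7 genes among them. At P12, where 9 genes were called, the fit of all 8 libraries, no filter, and limma with either pseudocount called 0. Limma on log2(FPKM + 1) called 7 genes for the interaction and 23 for age over both genotypes, where the smaller pseudocount gave 1. Without the label-contradicting P18 libraries, 6357 genes were called for KO against WT at P18, 1806 for age in KO, 7507 in WT, 2304 for the interaction and 7308 for age over both genotypes, with 2, 2, 5, 0 and 4 of the 7 genes.

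With the replicate number as a block, 439 genes were called at P12 and 0 for age over both genotypes, none of the 7 among them. Deviations of same-numbered libraries correlated at -0.030 for KO against WT at P12, -0.94 at P18, -0.097 for age in KO and 0.32 in WT, so the numbers were not taken to pair the samples. A crossed replicate block at P18 called 89 genes and none of the 7.

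Without the label-contradicting libraries, the log2 difference changed sign for Sqle (-0.35), Idi1 (-0.37), Fdps (0.19), Insig1 (0.52) and Scd1 (0.16) in KO against WT at P18, Idi1 (-0.14) for P18 against P12 in KO, Idi1 (0.18) for P18 against P12 in WT and Hmgcs1 (0.47), Sqle (-0.27), Cyp51 (0.37), Idi1 (-0.33), Fdps (0.10) and Insig1 (0.29) for the interaction. In limma on log2(FPKM + 1), the log2 difference changed sign for Hmgcs1 (-0.036) and Cyp51 (-0.069) in KO against WT at P18, Sqle (-0.044) for P18 against P12 in WT, Scd1 (-0.078) for the interaction and Idi1 (-0.052) for age over both genotypes. With the smaller pseudocount, the log2 difference changed sign for Hmgcs1 (-0.038) and Cyp51 (-0.087) in KO against WT at P18, Sqle (-0.050) for P18 against P12 in WT, Scd1 (-0.015) for the interaction and Idi1 (-0.056) for age over both genotypes. In DESeq2, the log2 difference changed sign for Cyp51 (0.0082) for the interaction. With RLE scaling, the log2 difference changed sign for Cyp51 (0.0077) for the interaction. The cause was not tested. Limma moved the median over all genes to -0.13 for age in KO and -0.10 over both genotypes, and to -0.17 and -0.13 with the smaller pseudocount.

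Leaving out each library in turn gave 6 to 207 called genes at P12, 0 to 9093 for age in KO, 0 to 8250 in WT and 0 to 4570 over both genotypes, with 0 to 7, 0 to 6 and 0 to 4 of the 7 genes in the comparisons of age. For KO against WT at P12 the log2 difference ranged over Cyp51 -0.025 to 0.11, Fdps -0.020 to 0.16 and Scd1 -0.61 to 0.025. For KO against WT at P18 the log2 difference ranged over Hmgcs1 -0.24 to 0.35, Sqle -0.11 to 0.53, Cyp51 -0.32 to 0.32, Idi1 -0.14 to 0.61, Insig1 -0.45 to 0.25 and Scd1 -0.42 to 0.015. For P18 against P12 in KO the log2 difference ranged over Hmgcs1 -0.64 to -0.11, Sqle 0.051 to 0.71, Cyp51 -0.68 to -0.065, Idi1 -0.14 to 0.62, Fdps -0.88 to -0.47, Insig1 -1.17 to -0.58 and Scd1 2.15 to 2.45. For P18 against P12 in WT the log2 difference ranged over Hmgcs1 -0.59 to -0.027, Sqle -0.19 to 0.31, Cyp51 -0.45 to -0.21, Idi1 -0.29 to 0.17, Fdps -0.58 to -0.11, Insig1 -0.88 to -0.21 and Scd1 1.92 to 2.56. For the interaction the log2 difference ranged over Hmgcs1 -0.38 to 0.22, Sqle -0.031 to 0.61, Cyp51 -0.37 to 0.26, Idi1 -0.10 to 0.65, Insig1 -0.67 to 0.019 and Scd1 -0.27 to 0.39. For age over both genotypes the log2 difference ranged over Cyp51 -0.51 to -0.20, Idi1 -0.091 to 0.29, Fdps -0.62 to -0.39, Insig1 -0.86 to -0.53 and Scd1 2.11 to 2.44. With 2 libraries per group, of which the P18 pairs lie far apart, only differences well beyond that spread can be called.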
